A study of Mus musculus with 12 samples.

Results

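The genes described here are 6 receptors that place B cells within the spleen: Cxcr4, Ackr3 (Cmkor1 or Cxcr7 in older lists), Cxcr5 (Blr1), Ccr7, Ccr6 and Gpr183 (Ebi2). They were found by the gene name of each probe in the array files, older symbols included, and all 6 were present, through 7 probes among 41174. Each gene was read through its brightest probe, and all 6 passed the filter on dim probes with 17133 genes in all. The series hybridised RNA of sorted splenic B cells of C57BL/6 mice to 12 one-colour arrays. All mice carried RERTCre, a Cre recombinase that tamoxifen switches on and that is not confined to B cells, and all received 3 mg tamoxifen citrate on each of 4 days and were killed on day 10. The groups, of 3 arrays each, were LPS-stimulated Ebf1 fl/fl cells, LPS-stimulated Ebf1 +/fl cells, resting Ebf1 fl/fl cells and resting Ebf1 +/fl cells. Mice with both alleles floxed (fl/fl) were thus set against mice with 1 floxed allele (+/fl), which were treated alike. The labels name a pair of gates, B220+AA4.1- with or without a further CD21lo cut, but not which array used which, and give no LPS dose or time. Whether the 3 arrays of a group stand for 3 animals is not stated, so the p-values speak for array-to-array spread, part of which may be technical.

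Chemokine receptors couple to inhibitory G proteins and steer cells up a gradient of their ligand. CXCR5 draws B cells into follicles along CXCL13, CCR7 draws them to the T zone along CCL19 and CCL21, and GPR183 answers an oxysterol and holds them at the outer follicle. CXCR4 answers CXCL12, a signal of marrow, red pulp and germinal centre dark zone, while ACKR3 binds the same ligand, removes it and does not couple to G proteins; in the mouse spleen ACKR3 is known on marginal zone B cells. Ebf1 is a transcription factor needed to specify and keep the B lineage, and LPS, a bacterial lipopolysaccharide, activates mouse B cells through a Toll-like receptor.

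The promoters of Cxcr4 and Ackr3 are printed because these receptors of 1 ligand moved in opposite directions between the resting genotypes. Each is the 250 bases before the gene's start in RefSeq, build GRCm38.p6, read 5′ to 3′ on the gene's strand, at chr1:128592300-128592549 on the minus strand for Cxcr4 and chr1:90203730-90203979 on the plus strand for Ackr3. Capitals mark the letters TATAAA.
Cxcr4: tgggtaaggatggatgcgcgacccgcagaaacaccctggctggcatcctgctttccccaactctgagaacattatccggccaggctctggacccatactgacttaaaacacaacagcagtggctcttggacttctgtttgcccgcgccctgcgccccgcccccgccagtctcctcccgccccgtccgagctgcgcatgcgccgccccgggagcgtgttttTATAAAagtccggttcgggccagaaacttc
Ackr3: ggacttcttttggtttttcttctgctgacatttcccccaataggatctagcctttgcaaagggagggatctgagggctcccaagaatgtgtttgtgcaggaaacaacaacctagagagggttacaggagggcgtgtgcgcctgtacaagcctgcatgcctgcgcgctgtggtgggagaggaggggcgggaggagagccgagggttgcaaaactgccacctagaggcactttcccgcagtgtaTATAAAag
The capitals lie 30 to 25 bases before the start in Cxcr4 and 8 to 3 bases before it in Ackr3. In Cxcr4 the letters also read on the opposite strand at 32 to 27 bases, where they overlap the first match. Of 32851 RefSeq mouse promoters of this length, 12.4% held TATAAA on either strand. The RefSeq table held 4 of the 6 receptors (Cxcr4, Ackr3, Ccr6 and Gpr183) in 5 entries, and Cxcr5 and Ccr7 are named only. The core of the Ebf1 motif, CCCNNGGG, was in 11.8% of all promoters and in 0 of the 5 entries. The E-box CACGTG was in 6.02% of all promoters and also in 0 of the 5. Both strands were searched, and no match overlapped one of another motif. A match is a run of letters, not a bound site.

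The probes set what was hybridised, and 3 of them are shown as the files give them, all 60 bases long, with positions in mouse build mm7. They are the second probe of Cxcr4, which is set beside the brighter one below, and the probes of Ccr6 and Gpr183, receptors that fell with LPS in both genotypes.
Cxcr4: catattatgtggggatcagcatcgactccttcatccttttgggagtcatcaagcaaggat
Ccr6: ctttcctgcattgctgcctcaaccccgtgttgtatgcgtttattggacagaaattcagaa
Gpr183: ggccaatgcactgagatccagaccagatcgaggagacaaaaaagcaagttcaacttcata

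The brighter Cxcr4 probe lies at chr1:128468640-128468699 and the second one at chr1:128469220-128469279, both on the minus strand. The Ackr3 probe lies at chr1:90120005-90120064 on the plus strand, the Cxcr5 probe at chr9:44446333-44446392 and the Ccr7 probe at chr11:99253592-99253652, both on the minus strand. The Gpr183 probe lies at chr14:116358517-116358576 on the minus strand. The files place the Ccr6 probe among unplaced sequence of chromosome 17. No gene models of mm7 were used here, so exons and UTRs are not assigned.

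Levels below are log2 signals relative to each array's 75th percentile, so that 1 unit is a doubling and 0 is the level of a probe at that percentile. Ebf1 itself did not read alike at its 2 probes. At the brighter probe it was 1.81, 1.68 and 1.71 in resting fl/fl cells, against 0.75, 1.40 and 1.18 in resting +/fl cells. At the dimmer probe it was -4.21, -4.24 and -5.01 in resting fl/fl cells, against -2.44, -2.18 and -3.16 in resting +/fl cells. Whether either probe lies in the floxed part was not known from the labels, so neither checks the deletion. All 7 B cell markers were above background on every array, and their summed level (linear signals over the array's 75th percentile, added up) was 175 to 215 in LPS fl/fl cells and 239.5 to 248 in LPS +/fl cells, against 420.0 to 492 in resting fl/fl cells and 479 to 607 in resting +/fl cells. With LPS 4 of these 7 fell in fl/fl cells and 5 in +/fl cells, and their part in the receptors' falls was not tested. The summed level of 6 marginal zone markers was 12.6 to 18.6 in LPS fl/fl cells against 37.3 to 44.2 in LPS +/fl cells, and 26.1 to 35.1 in resting fl/fl cells against 69.5 to 83.7 in resting +/fl cells. In the resting comparison the summed level of 14 myeloid markers was 19.5, 12.5 and 15.7 in fl/fl cells, against 133, 19.6 and 92.4 in +/fl cells, and that of 6 platelet markers was 12.3 to 14.1 in fl/fl cells against 3.92 to 5.93 in +/fl cells. All 14 and all 6 were above background on each of these arrays. Between 54.4% and 61.4% of spots were above background on 11 arrays and 83.2% on the array of LPS fl/fl replicate 2. Resting +/fl replicate 3 and LPS +/fl replicate 1 share a number in their sample names.

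With LPS, 3 of the receptors fell and Ccr7 rose in both genotypes, and Cxcr5 rose slightly in +/fl cells. Between genotypes, Ackr3 was far lower in fl/fl cells in both states, and Cxcr4 and Gpr183 were higher in resting fl/fl cells. A receptor is said to rise or fall where limma's adjusted p over all 17133 genes was under 0.05. In the resting genotype comparison 3 of 6 receptors passed, 2 higher and 1 lower, against 8.81% of all genes (4.63% higher and 4.18% lower). With LPS 1 of 6 passed between genotypes, lower, against 1.69% of all genes (0.887% higher and 0.805% lower). LPS against resting cells gave 4 of 6 in fl/fl cells, 1 higher and 3 lower, where 55.6% of all genes passed, 29.9% higher and 25.7% lower. In +/fl cells it gave 5 of 6, 2 higher and 3 lower, where 57.7% of all genes passed, 30.4% higher and 27.4% lower, so the counts for LPS were near or little above those of the array as a whole. The difference between the genotypes' LPS responses passed for 0 of 6 receptors, against 0.175% of all genes; 3486 genes were under an unadjusted p of 0.05 there. The median difference of the receptors was 0.25 between resting genotypes and 0.37 between LPS-treated genotypes, with 0.05 and 0.04 over all genes. For LPS against resting cells it was -1.69 in fl/fl cells and -1.11 in +/fl cells, with 0.06 and -0.03 over all genes. The fl/fl median is the midpoint of the Ccr6 and Ackr3 values, and that of Ackr3 rests on signals mostly not above background.

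**Figure D1:**
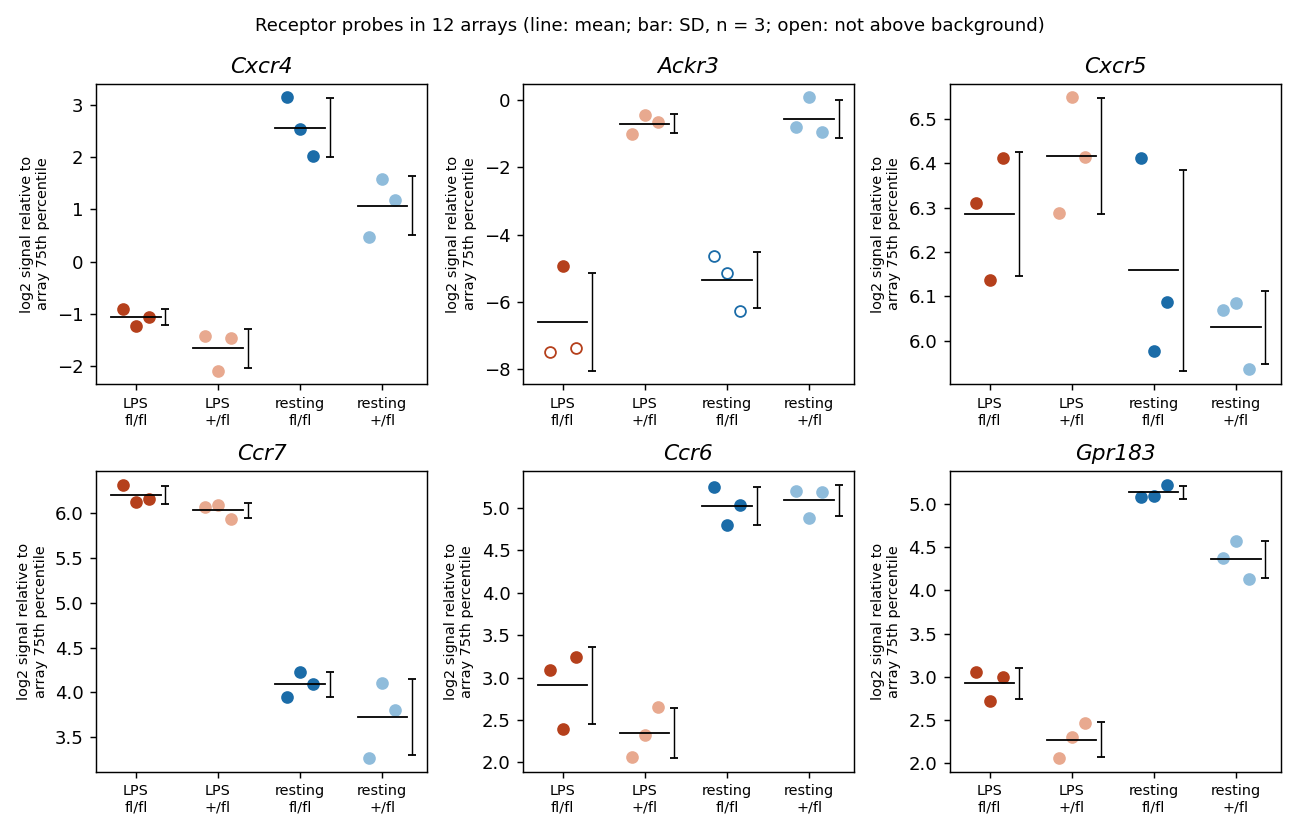
Log2 signal of the 6 receptors relative to each array's 75th percentile, 1 panel a gene with its own vertical axis, 1 point an array, in LPS fl/fl, LPS +/fl, resting fl/fl and resting +/fl cells (line, mean; bar, SD, n = 3). Open points are not above background: all 3 resting fl/fl arrays and 2 LPS fl/fl arrays for Ackr3. Ccr7 is highest in the LPS groups, and Cxcr4, Ccr6 and Gpr183 are highest in the resting groups.

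Cxcr4, the signalling receptor of CXCL12, was 12.4-fold lower with LPS in fl/fl cells and 6.64-fold lower in +/fl cells, and 2.81-fold higher in resting fl/fl than in resting +/fl cells. Its level was -0.91, -1.22 and -1.06 in LPS fl/fl cells, -1.42, -2.09 and -1.47 in LPS +/fl cells, 3.15, 2.53 and 2.02 in resting fl/fl cells, and 0.47, 1.57 and 1.18 in resting +/fl cells. No 2 of the 4 groups overlapped, and their order from high to low was resting fl/fl, resting +/fl, LPS fl/fl and LPS +/fl. The genotype difference in resting cells was 1.49 (SE 0.34, 95% confidence interval 0.74 to 2.25, adjusted p = 0.0297). With LPS it was 0.59 (-0.16 to 1.35), which did not pass (adjusted p = 0.328), so the last neighbours in that order were not separated by the test although their values did not overlap. The LPS difference was -3.63 in fl/fl cells (SE 0.34, adjusted p = 9.73e-06) and -2.73 in +/fl cells (SE 0.34, adjusted p = 6.47e-05). The gap between these responses, -0.90 (-1.97 to 0.17), did not pass (adjusted p = 0.311).

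The second Cxcr4 probe gave the same directions with a smaller genotype difference in resting cells. It read 1.77, 1.95 and 1.17 in resting fl/fl cells against 0.32, 1.19 and 1.05 in resting +/fl cells, so that fl/fl replicate 3 lay just below +/fl replicate 2. Its difference was 0.78 (0.19 to 1.37), which did not pass over all probes (adjusted p = 0.0947). Between LPS-treated genotypes the second probe gave 0.62 (0.03 to 1.20, adjusted p = 0.233), against 0.59 at the brighter probe. The LPS difference at this probe was -3.10 in fl/fl cells (adjusted p = 5.42e-06) and -2.94 in +/fl cells (adjusted p = 7.20e-06), against -3.63 and -2.73 at the brighter probe. The resting genotype call at the brighter probe also rested on single arrays. It was lost without resting fl/fl replicate 1 (1.20, adjusted p = 0.0949) or 2 (1.51, adjusted p = 0.0582), and without resting +/fl replicate 1 (1.19, adjusted p = 0.0817) or 3 (1.55, adjusted p = 0.0625). Within the 3 slides, each with 1 array of both resting groups, the difference was 1.57, 2.07 and 0.83, higher in fl/fl cells on each. Resting +/fl replicates 1 and 3 were the arrays with the most myeloid marker signal, and without both the difference was 0.99 (adjusted p = 0.312). The part of these cells, and of the platelet markers that moved with Cxcr4, in this result was not tested.

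Ackr3, which takes up CXCL12 without G-protein signalling, was the receptor that set the genotypes furthest apart. Its level was -7.49, -4.92 and -7.39 in LPS fl/fl cells, against -1.01, -0.43 and -0.65 in LPS +/fl cells. In resting fl/fl cells it was -4.62, -5.16 and -6.26, against -0.80, 0.09 and -0.94 in resting +/fl cells. Every fl/fl array lay below every +/fl array. The +/fl signals were 237 to 473 on the scanner's linear scale, and of the fl/fl arrays only LPS replicate 2, the array with the most spots above background, was above background, at a signal of 23.9. In resting cells the fitted difference was -4.80 (-6.28 to -3.31, adjusted p = 0.00617). Dim fl/fl arrays were also set to the lowest signal that counted as above background on each array, or kept their own signal where higher. The fl/fl mean was then 21.7-fold lower, a value for group means that leaves out the spread between arrays. With LPS the fitted difference was -5.90 (-7.39 to -4.42, adjusted p = 0.00917), with 1 of 3 fl/fl arrays above background. In +/fl cells LPS made no difference that passed, at -0.15 (-1.63 to 1.34, adjusted p = 0.871). In fl/fl cells no LPS difference is given, since all but 1 of those 6 arrays were not above background. The size of the genotype difference also depends on the treatment of dim signals. Under normexp, which adds 50 to every corrected signal, it was -2.80 with LPS and -1.55 in resting cells and did not pass, and with that correction repaired it was -2.66 with LPS (adjusted p = 0.000329) and -2.01 in resting cells (adjusted p = 0.000526).

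By slide, Ackr3 in the fl/fl array lay below the +/fl array on each of the 3 slides in resting cells and on the 1 slide that held both LPS groups. No size is given there, since none of these fl/fl arrays was above background. Without resting +/fl replicates 1 and 3 the call was lost with 1 array left in that group (adjusted p = 0.0715), and that array, at 0.09, lay above every fl/fl array. With the slide as a term the fitted difference with LPS was -5.36 and missed the threshold (adjusted p = 0.0888). The LPS fl/fl arrays lay on slides 3, 3 and 2 and the LPS +/fl arrays on slides 2, 1 and 1. Slide and genotype were thus partly confounded in every comparison of LPS-treated genotypes. Of the 6 marginal zone markers, 4 were lower in fl/fl cells with LPS (Cr2, Cd9, Mzb1 and Asb2) and 4 in resting cells (Cr2, S1pr3, Asb2 and Mzb1). Cr2, complement receptor CD21, differed by -1.98 with LPS and -2.46 in resting cells. Between genotypes these markers were lower in fl/fl cells, as Ackr3 was, and their part in its difference was not tested. With LPS in +/fl cells 3 of the 6 markers fell and 1 rose, while Ackr3 showed no difference that passed. In sorted bulk cells, fewer cells of a type and less RNA per cell cannot be told apart. Which arrays had the CD21lo cut is not stated, so a difference of gate between groups cannot be told apart from these either.

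Cxcr5, the follicle-homing receptor, varied least. Its level was 6.31, 6.14 and 6.41 in LPS fl/fl cells, 6.29, 6.55 and 6.41 in LPS +/fl cells, 6.41, 5.98 and 6.09 in resting fl/fl cells, and 6.07, 6.09 and 5.94 in resting +/fl cells. The genotypes overlapped in both states. The genotype difference was -0.13 (-0.43 to 0.17, adjusted p = 0.587) with LPS and 0.13 (-0.17 to 0.43, adjusted p = 0.579) in resting cells, so the intervals leave room for a difference of up to 0.43 log2 units. LPS cells were 1.31-fold higher than resting cells in the +/fl genotype (0.39, 0.09 to 0.69, adjusted p = 0.0311), and not past the threshold in fl/fl cells (0.13, -0.17 to 0.43, adjusted p = 0.455). The +/fl call was lost in 12 of 25 other settings, for example at 0.22 with quantile normalization and 0.30 with the slide as a term. The difference between the responses was -0.26 (adjusted p = 0.458).

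Ccr7, the T zone receptor, was the one receptor that rose clearly with LPS. Its level was 6.32, 6.13 and 6.16 in LPS fl/fl cells and 6.07, 6.09 and 5.93 in LPS +/fl cells, against 3.94, 4.23 and 4.09 in resting fl/fl cells and 3.27, 4.10 and 3.80 in resting +/fl cells. Every LPS array lay above every resting array. The rise was 4.33-fold in fl/fl cells (2.11, SE 0.19, adjusted p = 6.73e-06) and 4.95-fold in +/fl cells (2.31, SE 0.19, adjusted p = 3.42e-06). The genotypes differed by 0.17 with LPS (-0.25 to 0.59, adjusted p = 0.611), where the values did not overlap, and by 0.36 in resting cells (-0.05 to 0.78, adjusted p = 0.235), where they did. Values of the genotypes that did not overlap were seen for 4 of 6 receptors with LPS and 3 of 6 in resting cells, against 33.4% and 31.2% of all genes. Between LPS and resting cells they were seen for 4 of 6 receptors in fl/fl cells and 5 of 6 in +/fl cells, against 62.1% and 65.7% of all genes.

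Ccr6, the receptor of CCL20, fell with LPS in both genotypes. Its level was 3.09, 2.39 and 3.25 in LPS fl/fl cells and 2.06, 2.33 and 2.65 in LPS +/fl cells, against 5.25, 4.80 and 5.03 in resting fl/fl cells and 5.20, 4.88 and 5.20 in resting +/fl cells. The LPS and resting groups were well apart, while the genotypes overlapped in both states. The fall was 4.34-fold in fl/fl cells (-2.12, SE 0.24, adjusted p = 3.66e-05) and 6.71-fold in +/fl cells (-2.75, SE 0.24, adjusted p = 5.43e-06). The responses differed by 0.63 (-0.12 to 1.38), which did not pass (adjusted p = 0.314). Neither did the genotype difference with LPS (0.57, 0.03 to 1.10, adjusted p = 0.209) or in resting cells (-0.06, -0.60 to 0.47, adjusted p = 0.897).

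Gpr183, the oxysterol receptor, fell with LPS and was the other receptor higher in resting fl/fl cells. Its level was 3.05, 2.72 and 3.00 in LPS fl/fl cells and 2.06, 2.30 and 2.46 in LPS +/fl cells, against 5.08, 5.10 and 5.22 in resting fl/fl cells and 4.38, 4.57 and 4.13 in resting +/fl cells. No 2 groups overlapped, in the order resting fl/fl, resting +/fl, LPS fl/fl and LPS +/fl. The genotype difference in resting cells was 0.77 (SE 0.15, 1.71-fold, adjusted p = 0.0170), and it was 0.51, 0.72 and 1.09 within the 3 slides. With LPS it was of similar size, 0.65 (0.32 to 0.98, 1.57-fold), and missed the threshold (adjusted p = 0.0633). LPS cells were 4.62-fold lower than resting cells in fl/fl (-2.21, SE 0.15, adjusted p = 1.20e-06) and 4.24-fold lower in +/fl (-2.08, SE 0.15, adjusted p = 1.54e-06). These responses differed by -0.12 (-0.60 to 0.35, adjusted p = 0.767). Without resting +/fl replicates 1 and 3 the resting difference was 0.57 (adjusted p = 0.235).

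**Figure D2:**
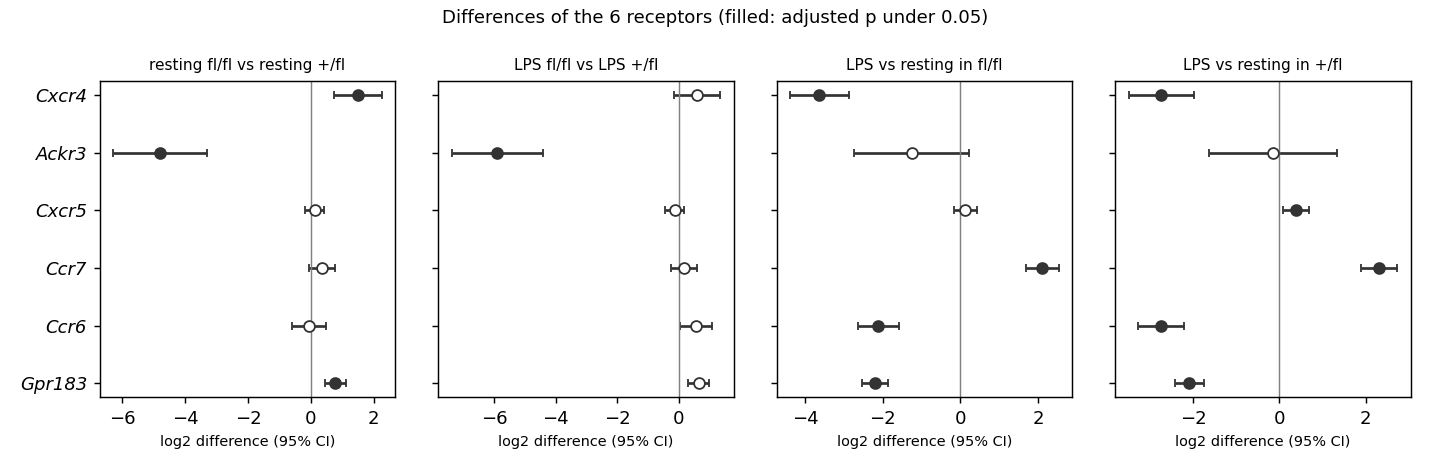
Log2 difference (point) with its 95% confidence interval (bar) for each receptor in the 4 comparisons named above the panels, the first-named group minus the second. Filled points had an adjusted p under 0.05. Cxcr4 and Gpr183 lie above 0 and Ackr3 far below 0 between resting genotypes, while Cxcr4, Ccr6 and Gpr183 lie below 0 and Ccr7 above 0 in both LPS panels. The Ackr3 points in fl/fl groups rest on signals mostly below background.

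By slide, the falls and the rise with LPS kept their direction wherever a slide held both groups. In fl/fl cells (2 slides) the LPS difference of Cxcr4 was -3.60 and -3.08, that of Ccr7 1.93 and 2.13, that of Ccr6 -1.56 and -2.29 and that of Gpr183 -2.09 and -2.33. In +/fl cells (2 slides) it was -3.35 and -1.88 for Cxcr4, 1.91 and 2.80 for Ccr7, -2.39 and -3.14 for Ccr6 and -2.18 and -2.32 for Gpr183. These calls held in all 25 other settings for Cxcr4, Ccr7, Ccr6 and Gpr183 in both genotypes. With 3 arrays a group, an exact two-sided permutation test of any 1 receptor cannot go below p = 0.1, and it gave 0.1 for each of these differences.

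Genes around the receptors were grouped in lists by role. To set beside the list counts, 8.81% of all genes passed between resting genotypes and 1.69% between LPS-treated genotypes. For LPS against resting cells 55.6% of all genes passed in fl/fl cells and 57.7% in +/fl cells. Of 19 other chemokine receptors 13 passed the filter, and 0 of 13 passed between genotypes with LPS or in resting cells. With LPS in fl/fl cells 2 rose and 4 fell, and the smallest p-values belonged to Ackr2, an atypical receptor that clears inflammatory chemokines (-3.20, adjusted p = 0.000253), Cxcr3, a receptor of interferon-induced chemokines (-2.33, adjusted p = 0.000433), and Xcr1 (-1.50, adjusted p = 0.000455). The Xcr1 call was lost with the mean over its probes (-0.35, adjusted p = 0.629) and with normexp (-1.35, adjusted p = 0.0531). Those that rose with LPS in fl/fl cells were Ccrl2 (1.02) and Cxcr6 (1.63). In +/fl cells 0 rose and 8 fell, led by Ackr2 (-4.18), Cxcr3 (-2.19) and Ccr3 (-3.76), the last with 1 of 3 LPS +/fl arrays above background. Myeloid cells can carry several of these receptors. The summed myeloid markers were 19.6 to 76.4 in LPS fl/fl cells and 11.7 to 89.5 in LPS +/fl cells, beside the resting values above. Taken singly, 5 of the 14 fell and 3 rose with LPS in fl/fl cells, and 9 fell and 0 rose in +/fl cells. On the LPS +/fl arrays 10 to 11 of the 14 were above background. Of 4 NK cell markers 4 fell with LPS in both genotypes, with a summed level of 3.34 to 5.89 in LPS fl/fl cells and 1.93 to 2.34 in LPS +/fl cells, against 19.2 to 20.4 in resting fl/fl cells and 14.7 to 24.8 in resting +/fl cells. Of 6 platelet markers 5 fell with LPS in both genotypes, with a summed level of 1.66 to 2.16 in LPS fl/fl cells, against 12.3 to 14.1 in resting fl/fl cells, and below every resting +/fl array in LPS +/fl cells. The part of these cells in the falls of the receptors was not tested.

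Ligands and ligand enzymes were mostly dim. Of 6 ligands of these receptors 2 passed the filter, and Ccl19, a CCR7 ligand, was lower with LPS in +/fl cells (-1.19, adjusted p = 0.0234). Of 3 enzymes that make or remove the GPR183 ligand 2 passed. Cyp7b1, which hydroxylates the precursor of that ligand, was higher with LPS in fl/fl cells (adjusted p = 0.000490). Its mean was 2.74-fold higher there with the dim resting arrays set as for Ackr3 above. Its level was -3.47, -3.97 and -3.81 in LPS fl/fl cells, against -5.84, -7.72 and -6.35 in resting fl/fl cells, where no array was above background. Under normexp background correction this difference was -0.61, and with that correction repaired it was 0.11, and neither passed.

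Among 23 genes of receptor signalling and shut-off, 0 passed between genotypes in either state. LPS cells had 3 higher and 16 lower in fl/fl, and 3 higher and 14 lower in +/fl. Arrb1, an arrestin that ends receptor signalling, was at -0.32, -0.77 and -0.59 in LPS fl/fl cells against 3.31, 3.29 and 3.08 in resting fl/fl cells, a difference of -3.78 (adjusted p = 4.65e-08), and -3.68 in +/fl cells. Rgs14, which shortens G-protein signals, fell by 4.19 and 4.12 on the log2 scale in fl/fl and +/fl cells, and the receptor kinase Grk6 fell by 2.85 and 2.16. The genes that rose in fl/fl cells were Elmo1 (0.82), Gnaq (0.81) and Rgs16 (1.35).

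Among 11 partner genes of homing and retention, 2 were higher and 1 lower in resting fl/fl cells. Itgb7, an integrin chain of gut homing, was 0.75 higher (adjusted p = 0.00884), and S1pr3, a sphingosine-1-phosphate receptor, was lower, at -2.96 (adjusted p = 0.000117). With LPS, Itgb7 alone passed between genotypes (0.63, adjusted p = 0.0362). LPS cells had 1 gene higher and 7 lower in fl/fl, and 1 higher and 8 lower in +/fl. Itgb7 (-5.03 and -4.91 in fl/fl and +/fl cells) and S1pr1, the egress receptor (-4.60 and -4.51), led both.

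Of 15 transcription factors linked to these receptors, 3 were higher in resting fl/fl cells and 0 lower, namely Bcl6, a repressor that germinal centre B cells need (1.26, adjusted p = 0.0149), Bach2, a repressor of plasma cell fate (0.84, adjusted p = 0.0365), and Ebf1 at its brighter probe (0.62, adjusted p = 0.0344). The dimmer Ebf1 probe, fitted over all probes, was lower instead (-1.90, -2.98 to -0.82, adjusted p = 0.0432), so the 2 probes gave opposite calls. The mean of both Ebf1 probes was -0.64 (adjusted p = 0.177). The calls of Ebf1 and Bach2 were each lost in most other settings, among them without resting +/fl replicate 1 or 3. The Bcl6 call was lost in 5 of 25 settings, among them without resting fl/fl replicate 1 (1.08, adjusted p = 0.0511). With LPS 0 of 15 passed between genotypes. LPS cells had 4 higher and 6 lower in fl/fl, and 7 higher and 4 lower in +/fl. Nfkb1 (1.30 and 1.59 in fl/fl and +/fl cells) and Irf4 (1.79 and 1.73) rose in both, and Pou2af1, a B cell coactivator, fell by 2.75 and 2.20 on the log2 scale.

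**Figure D3:**
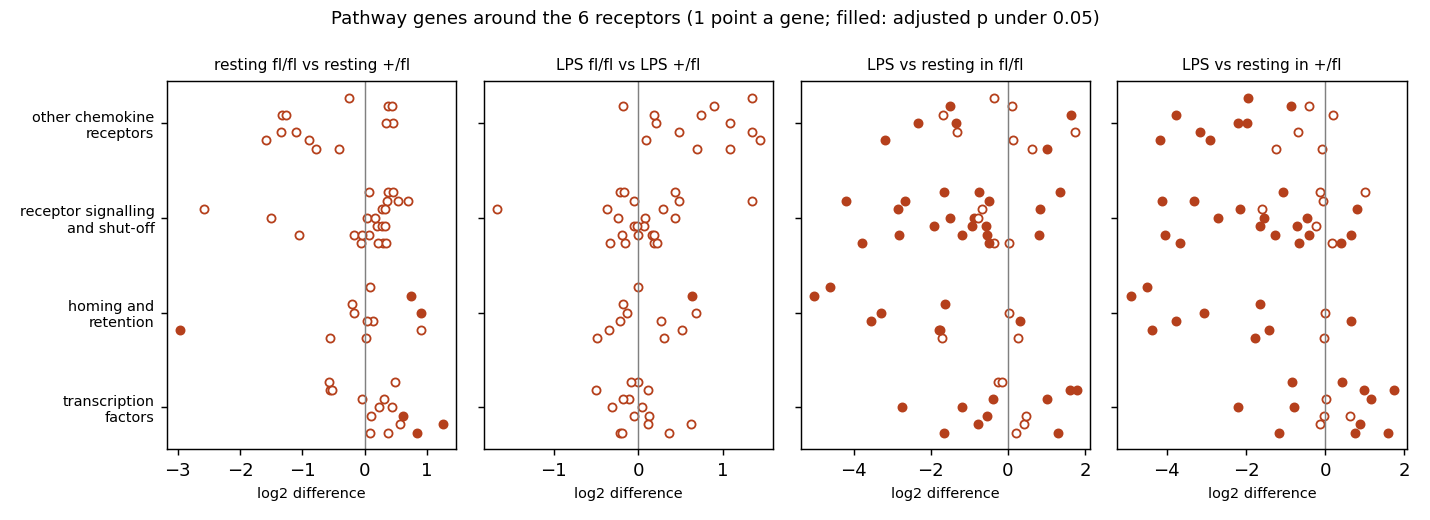
Log2 difference of each tested gene of 4 lists in the 4 comparisons, the first-named group minus the second, 1 point a gene, filled where the adjusted p was under 0.05, with vertical scatter only to separate points. Filled points in the genotype panels are 3 of 11 homing genes and 3 of 15 transcription factors in resting cells, where 8.81% of all genes passed. With LPS they are 1 of 11 homing genes, where 1.69% of all genes passed. Most signalling points lie below 0 in the LPS panels.

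The genes most like each receptor over the 12 arrays were ranked by the root mean square difference of centred log2 levels, over 17132 other genes. For Gpr183 they were A930006K02Rik (0.15), Ltb (0.17) and Il16 (0.18). For Ccr6 they were Vamp5 (0.22), Bend5 (0.23) and Lpar6 (0.23), and for Cxcr4 they were BC013561 (0.27), Pde2a (0.31) and H1f2 (0.32). Ccr7 had AK078757 (0.15), Aaas (0.20) and Usp31 (0.21) nearest. Cxcr5 had Tma7, Med7 and Bfar within 0.08, which says little since its own SD over the arrays was 0.20. Ackr3 had no gene nearer than Zfp532 (1.60). Of these 18 neighbours, 8 were the same with quantile normalization, 7 with the deposited values, 6 with repaired normexp, 9 with the mean over probes and 18 with no filter.

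**Figure D4:**
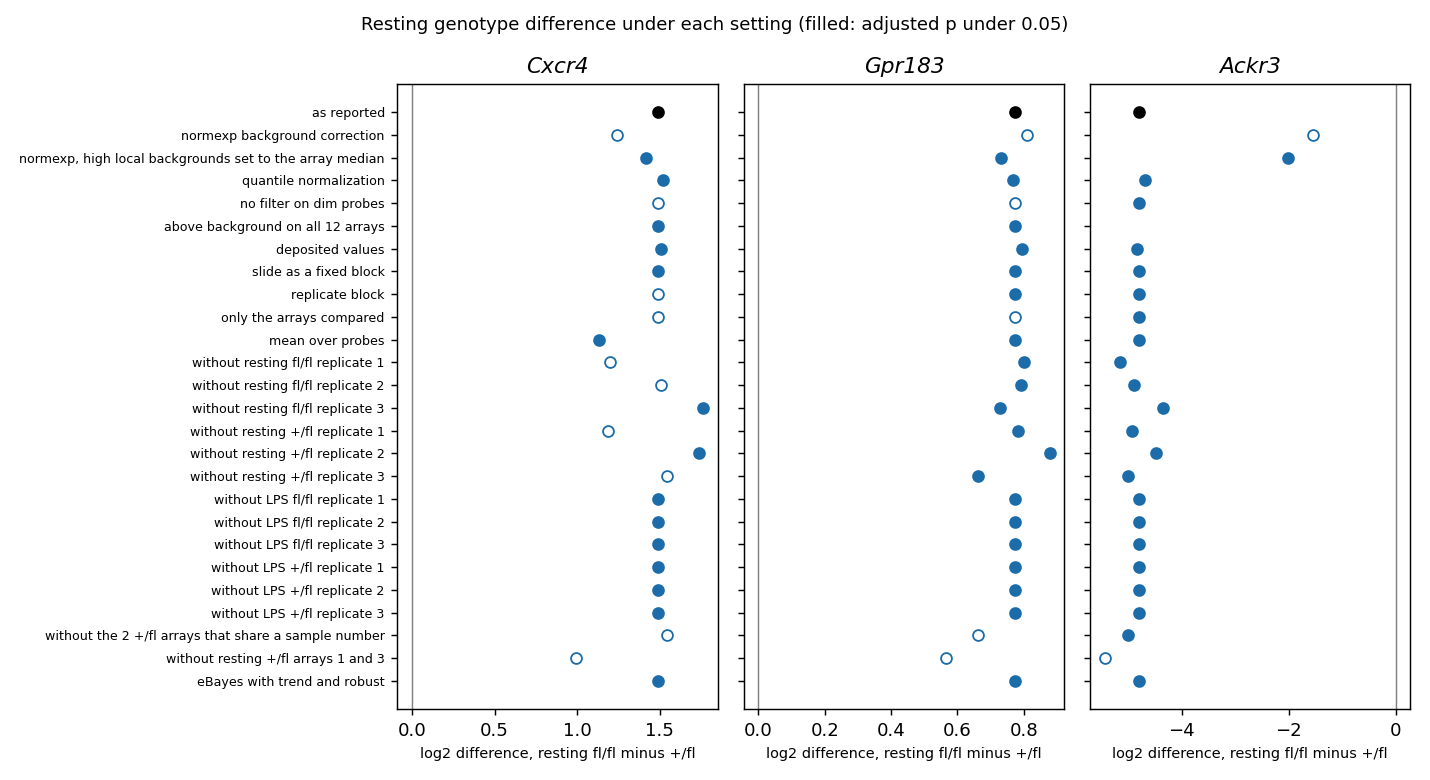
Log2 difference of Cxcr4, Gpr183 and Ackr3, resting fl/fl minus resting +/fl, as reported (black) and under each other setting (blue), filled where the adjusted p was under 0.05. All values keep their sign. Cxcr4 loses the threshold in 10 of 25 settings, Gpr183 in 5 of 25 and Ackr3 in 2 of 24.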

How the data were processed

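RNA of sorted splenic B cells was hybridised to 12 one-colour Agilent arrays. Per the file headers, spots were read by Feature Extraction 9.5.3.1 (9.1 in the submitters' processing notes), which made the deposited intensity used here, background-subtracted on a linear scale. Probe positions follow mm7, per the file headers. The authors' deposited table of quantile-normalized intensity (every column with the same median, 30.8) matched 41174 of the probes and served as an alternative.

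Each array's intensity was taken as log2 and its 75th percentile subtracted. Spots with an outlier flag were left out, spots of a probe were averaged, and probes above background on at least 3 of 12 arrays were kept (25677 probes, 17133 genes, the brightest probe a gene). No receptor spot was saturated. Probe accessions named 22951 probes, symbols 6659 and older symbols 3109, and 8455 kept the file's name. Group means were fitted with limma 3.58.1 in R 4.3.3 over all 12 arrays, with 5 contrasts and Benjamini-Hochberg adjustment over all genes. In data simulated for the resting comparison (17133 genes), limma recovered 59 of 100 changes of 1 and 73 of 100 changes of 2 log2 units. The number of arrays limits the precision.

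The receptors and gene lists were chosen with earlier results of these data known. Named genes were the 6 receptors and, in each list and comparison, first the 3 with the smallest p among those that passed; 1 gene of the homing list is not reported here. Alternatives changed the background correction, scaling, filter, probe summary, slide or replicate block, variance model and arrays used. Same-numbered replicates correlated by -0.08 to 0.13 in their deviations from group means, so numbers were not taken as pairs. Resting +/fl replicate 3 and LPS +/fl replicate 1, whose sample names share a number, correlated by 0.133. They were fitted as separate arrays.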

Additional observations from a re-analysis of the deposited data

Results flagged for a closer look

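1 result was picked out because its genotype difference changed with LPS in the interaction test. For S1pr3, of the homing list, fl/fl minus +/fl was -0.35 with LPS and -2.96 in resting cells, and the first exceeded the second by 2.61 log2 units (limma, adjusted p = 0.00735). Its level was -3.81, -3.35 and -3.84 in LPS fl/fl cells against -2.98, -3.64 and -3.34 in LPS +/fl cells, and -2.03, -1.92 and -1.76 in resting fl/fl cells against 1.05, 0.91 and 1.21 in resting +/fl cells. The genotypes thus overlapped with LPS and lay apart in resting cells. The interaction missed the threshold with quantile normalization (2.04, adjusted p = 0.0745), with the deposited values (1.96, adjusted p = 0.0890), with the mean over probes (3.85, adjusted p = 0.0716), without resting +/fl replicates 1 and 3 (2.46, adjusted p = 0.0690) and with normexp (0.83). S1pr3 is also on the list of marginal zone markers, and the part of marginal zone cells in this difference was not tested.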

How the results depend on the processing

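Of the receptors' differences, 697 of 739 values under other settings kept their direction and their side of the threshold, or stayed uncalled. Between resting genotypes the 3 receptors past the threshold became 1 with no filter, with only the arrays compared or without the +/fl arrays that share a number, and 0 with normexp or without resting +/fl replicates 1 and 3. Between LPS-treated genotypes the 1 became 2 with the deposited values, quantile normalization, repaired normexp or a trended robust variance model, where Gpr183 passed, and 0 with normexp, the slide as a term, only the arrays compared or without the arrays that share a number. Leaving out 1 replicate gave 2 to 3 and 1 to 1 in these comparisons, 4 to 5 for LPS in fl/fl cells, 4 to 5 in +/fl cells and 0 to 0 for the interaction. The added call in fl/fl cells was Ackr3 without LPS fl/fl replicate 2, when none of its fl/fl arrays left was above background. With the replicate number as a block (not a pairing, since no number kept its arrays together), 2, 1, 4, 4 and 0 receptors passed, with Cxcr4 at an adjusted p of 0.0645. The cause of these losses was not tested; normexp failed on 3 arrays with a few very high local backgrounds, and dropping arrays leaves fewer samples.

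Over all genes, 1510 passed between resting genotypes, and 0 with normexp, 421 with no filter, 134 with only the arrays compared, 725 with the block, 276 without the arrays that share a number, 86 without resting +/fl replicates 1 and 3, and 504 to 1664 without 1 replicate. With LPS 290 passed, and 0, 27, 32, 42 and 14 in the first 5 of these settings, 5 with the slide, 134 with quantile normalization, 136 with the deposited values, 531 with probes above background on all arrays, 642 with the trended robust model and 16 to 292 without 1 replicate. The interaction passed for 30, between 0 (normexp) and 424 (trended robust model). For LPS against resting cells only normexp moved the counts that far, to 2382 against 9524 in fl/fl cells and to 1476 against 9890 in +/fl cells. The share of calls that were higher was 52.4% between LPS-treated genotypes, and 39.6% with quantile normalization, 39.7% with the deposited values, 41.0% with repaired normexp, 75% with only the arrays compared, 72.4% without LPS fl/fl replicate 1 and 70.7% without LPS fl/fl replicate 3. Repaired normexp, which shifted the median of all genes to -0.23 with LPS, gave 38.9% against 53.7% for LPS in fl/fl cells, 42.1% against 52.6% in +/fl cells and 41% against 60% for the interaction. Of the named differences that passed, 2 changed sign: Cyp7b1 with LPS in fl/fl cells (-0.61 with normexp) and Ebf1 between resting genotypes (-0.64 with the mean over probes). Some receptor differences that did not pass also changed sign and stayed uncalled. Examples are Cxcr4 (-0.03 to 0.91) and Cxcr5 (-0.20 to 0.33) between LPS-treated genotypes. Others are Ccr6 (-0.18 to 0.15) and Ccr7 (-0.01 to 0.55) between resting genotypes, and Ackr3 with LPS in +/fl cells (-0.79 to 0.18). Of 34 named differences of list genes, 20 kept their call in all settings. Of the rest, Bach2 lost it in 17 settings, Itgb7 between LPS-treated genotypes in 13, and Ccl19 in 7. Ebf1 lost it in 17 settings and also in the 1 where its sign changed, and so passed in 7 of 25. Ackr3 in fl/fl cells is limited by signal over background.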
